A study of Mus musculus with 6 samples.

Results

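The mRNAs of 10 genes that encode inhibitors of the extracellular signal-regulated kinase (ERK) pathway were measured in mouse acute myeloid leukemia (AML) cells with or without *Phf6*, an X-linked gene for a chromatin-associated zinc finger protein. The genes were *Dusp1*, *Dusp2*, *Dusp4*, *Dusp5*, *Dusp6*, *Dusp10*, *Spry1*, *Spry2*, *Spred1* and *Spred2*, taken by gene name from an RNA-sequencing table of 54532 genes, and all 10 had a row. The study set *VC Phf6,RE9a* cells (*Vav1-Cre;Phf6 fl/y*) against *WT Phf6,RE9a* cells (*Phf6 fl/y*), with 3 libraries of each. Both groups carried the floxed *Phf6* allele, came from male donors and expressed RUNX1-ETO9a (RE9a), a truncated form of the t(8;21) fusion protein, from a retrovirus that also encoded GFP; only the VC group carried Cre, driven by the *Vav1* promoter, which is active across blood cells rather than in a single lineage. Per the study's text, lineage-negative fetal liver cells received the virus and were passed through male recipient mice. That text gives the embryonic day of the fetal livers and an age range for male mice, neither stated as the age at collection. Per the sample labels, the cells sequenced were GFP+ leukemia cells sorted from bone marrow. The age of the mice at collection, the treatment of recipients and whether the 3 libraries of a group came from separate mice are not given in the sources used here, so the p-values measure the spread between these libraries, which may be partly technical. The libraries are named by their labelled numbers, WT replicates 1, 2 and 3 and VC replicates 11, 12 and 13. They held 15675358 to 16817994 counts each.

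ERK is the last kinase of a cascade that carries signals from growth factor and cytokine receptors through RAS, RAF and MEK to the nucleus. Active ERK induces transcription of its own inhibitors, and these act at separate levels of the cascade. Dual-specificity phosphatases (DUSPs, also called MAP kinase phosphatases) remove phosphate from threonine and tyrosine of the MAP kinases themselves, Sprouty proteins bind adaptors near the receptor, and SPRED proteins bring the RAS-inactivating protein neurofibromin to the membrane. In blood cells these inhibitors limit signaling downstream of receptors such as KIT, FLT3 and the antigen receptors. Because ERK induces many of them, their mRNAs are widely used as readouts of the pathway, although other signals induce several of them too.

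The promoters of 2 of the genes are shown because they held the only matches to the regulatory motifs searched, and because *Dusp1* and *Dusp5* were the most abundant of the 10 mRNAs in *WT Phf6,RE9a* cells. RefSeq windows (GRCm38.p6) from 250 bases before to 50 bases after the transcript start were found for 9 of the 10 genes, and *Dusp4* was not matched. The window of *Dusp10* held 0 bases upstream of the deposited gene, so it is not the promoter at the gene's deposited start. The windows of *Spred2*, *Dusp1* and *Dusp5* held 183, 203 and 214 upstream bases, and the rest 250. The stretch of *Dusp1* is chr17:26508573-26508672 on the minus strand, bases -200 to -101 from the start, with a cyclic AMP response element in capitals. The stretch of *Dusp5* is chr19:53529009-53529108 on the plus strand, bases -136 to -37, with 2 adjacent CArG boxes, the motif of serum response factor, in capitals. Both are written 5′ to 3′ along the gene's strand.
Dusp1: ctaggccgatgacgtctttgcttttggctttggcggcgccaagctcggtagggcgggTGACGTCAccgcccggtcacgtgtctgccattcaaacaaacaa
Dusp5: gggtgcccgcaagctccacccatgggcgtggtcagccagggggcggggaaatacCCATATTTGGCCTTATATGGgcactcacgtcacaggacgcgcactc
The cyclic AMP response element (TGACGTCA, both strands searched) lay at -143 to -136 of *Dusp1* and occurred in 1.8% of the 32851 RefSeq windows of this length. The CArG boxes lay at -82 to -73 and -72 to -63 of *Dusp5*, and 1.6% of all windows held at least 1. No window of the 9 genes held an AP-1 site (TGANTCA, in 7.8% of all windows), an ETS site (CCGGAAG, 8.9%), a RUNX site (TGTGGT, 16.8%) or a GATA site (AGATAA, 11.2%) on either strand. These are matches of letters, and their absence says only that the letters were not in the window.

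The targeted gene followed the labels. *Phf6* fell from 64.3 to 20.3 CPM, with counts of 1044, 827 and 1142 in the WT libraries and 388, 314 and 331 in the VC libraries (log2 fold change -1.66, SE 0.13, edgeR adjusted p = 9.32e-05). CPM is a count scaled to a common library total after TMM normalization, and a fold change is VC over WT throughout. The samples were sorted populations, and their marker genes differed widely between the groups. The summed CPM of 4 progenitor markers was 2408 to 3827 in WT and 496 to 661 in VC libraries, that of 8 mast cell and basophil markers 14552 to 22664 and 4618 to 5081, that of 8 erythroid markers 1465 to 2241 and 5184 to 6157, and that of 8 neutrophil maturation markers 145 to 448 and 916 to 3476. By gene, 3 of the 4 progenitor and 7 of the 8 mast cell and basophil markers fell, while all 8 erythroid and all 8 neutrophil markers rose. *Kit*, which made up most of the progenitor sum in WT libraries, fell (log2 fold change -3.15, SE 0.23, edgeR adjusted p = 7.75e-05), and *Flt3* did not pass. The leukocyte and myeloid markers summed to 260 to 306 CPM in WT and 261 to 493 CPM in VC libraries, with *Ptprc* (CD45) and *Spi1* detected in all 6. Among these 8 markers *Cebpa*, *Mpo*, *Elane* and *Itgam* rose, *Cd33* fell, and *Ptprc*, *Spi1* and *Csf1r* did not pass. Markers of T cells (1.23 to 1.82 CPM in WT, 6.59 to 9.80 in VC), B cells (0.678 to 1.62 and 9.45 to 28.3), and macrophages (12.7 to 23.4 and 29.6 to 34.2) were scarcer. *Lck*, the only T cell marker abundant enough to test, made up most of the T cell sum in VC libraries. The megakaryocyte and platelet markers summed to 167 to 293 CPM in WT and 16.7 to 17.3 CPM in VC libraries, but of the 3 tested only *Itga2b*, which made up most of the sum, fell, while *Gp9* rose and *Pf4* did not pass. In such sorted bulk samples, fewer cells of a type and less RNA per cell cannot be told apart, and the part of these marker differences in the results below was not tested.

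Most of the feedback inhibitors were lower in *VC Phf6,RE9a* cells. Of the 10 genes, all of which passed the filter on low counts, 7 fell (*Dusp1*, *Dusp4*, *Dusp5*, *Dusp6*, *Spry2*, *Spred1* and *Spred2*), 2 rose (*Dusp2* and *Spry1*) and 1 did not pass the test (*Dusp10*) at an edgeR adjusted p under 0.05 over the 14169 genes tested. Across all genes tested 44.2% passed in either direction, 22.7% as lower and 21.5% as higher in VC, so the 2 genes that rose are a share close to that of all genes. The median log2 fold change of the 10 genes was -2.61, beside 0.01 for all genes tested. Falls of at least 4-fold were found for 5 of the 10 (*Dusp4*, *Dusp5*, *Dusp6*, *Spred1* and *Spred2*), against 5.23% of all genes tested, and each of these 5 also fell at least 8-fold, against 2.58%. For 9 of the 10 the VC libraries did not overlap the WT libraries, 7 lying below and 2 above, whereas 57.3% of all genes tested had groups that did not overlap, 28.4% with VC lower and 28.9% with VC higher. Leaving out any 1 library, the count of genes that fell remained 7. Because the genes were chosen with results of these data known, their shares beside those of all genes are descriptions only.

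**Figure D1:**
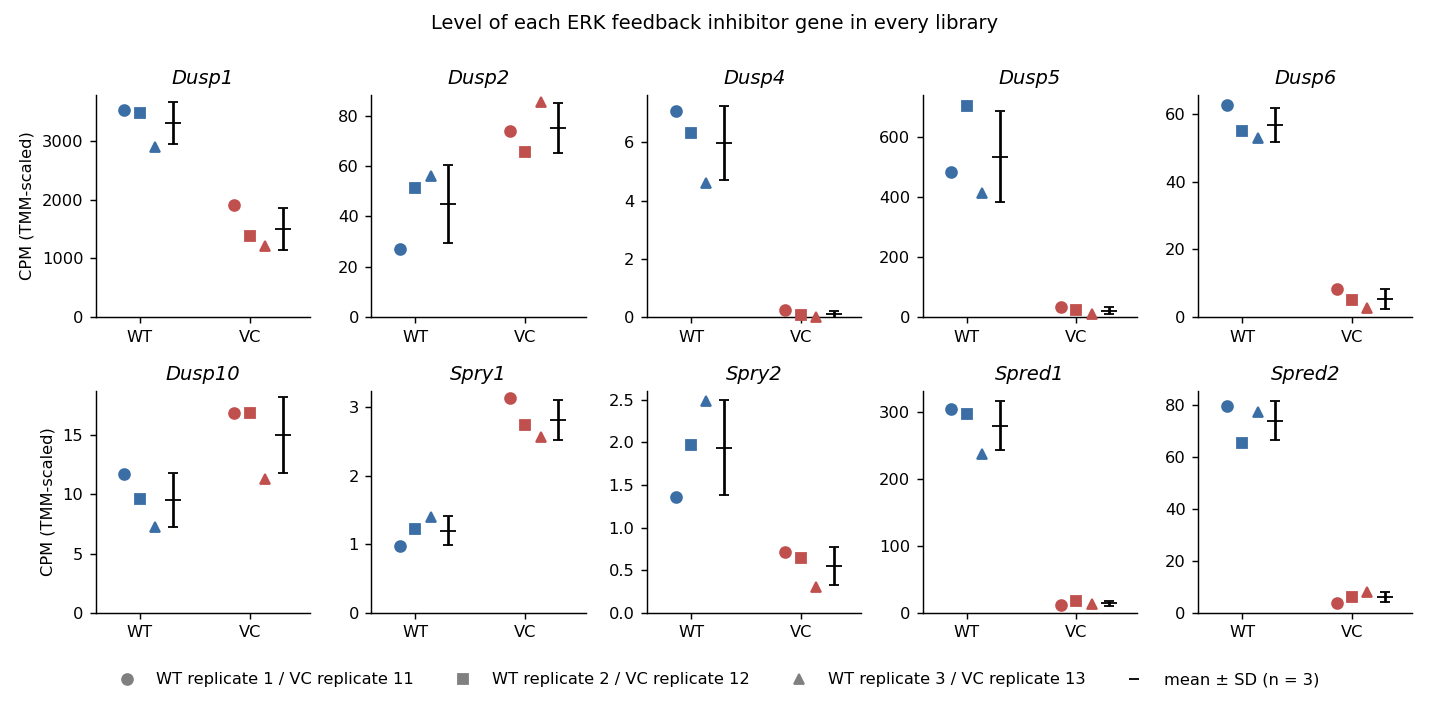
Each panel shows 1 gene, with CPM after TMM scaling on a linear axis from 0, a symbol for each library (3 WT in blue, 3 VC in red) and the mean ± SD in black. The VC libraries lie below the WT libraries for 7 genes and above them for *Dusp2* and *Spry1*, and the groups overlap only for *Dusp10*.

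*Dusp1* (ENSMUSG00000024190, GRCm38 chromosome 17, 26505590 to 26508519, minus strand) encodes a nuclear phosphatase of p38, JNK and ERK that is induced within minutes of stress and growth factor signals. It was by far the most abundant of the 10 mRNAs. Its level was 3537, 3479 and 2892 CPM in the WT libraries and 1909, 1392 and 1219 CPM in the VC libraries, or 3303 ± 357 and 1506 ± 359 CPM (SD, n = 3). Every VC library was below every WT library, and the fall was 2.19-fold (log2 fold change -1.13, SE 0.19, edgeR adjusted p = 0.00233). This was the smallest of the 7 falls.

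*Dusp5* (ENSMUSG00000034765, chromosome 19, 53529109 to 53542431, plus strand), the gene with the CArG boxes above, encodes a nuclear phosphatase selective for ERK. It was the second most abundant of the 10 mRNAs in *WT Phf6,RE9a* cells, at 483, 706 and 415.5 CPM, and was 33.5, 22.8 and 9.09 CPM in VC replicates 11, 12 and 13. The groups were far apart, although the VC libraries themselves spanned a 3.69-fold range. The mean fell from 535 ± 152 to 21.8 ± 12.3 CPM (SD, n = 3), which the fit gave as 24.5-fold (log2 fold change -4.62, SE 0.46, edgeR adjusted p = 0.000251). GENCODE M21 places an antisense RNA over the start of *Dusp5*. That RNA was not analysed here, and the strand setting of the counting is not given in the sources used here, so reads of an antisense partner cannot be told apart.

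*Dusp4* (ENSMUSG00000031530, chromosome 8, 34807297 to 34819894, plus strand) encodes an inducible nuclear phosphatase closely related to DUSP1. It gave 109, 93 and 76 counts in the WT libraries and 4, 1 and 0 counts in the VC libraries, so it was near the limit of detection without *Phf6*. In CPM the WT libraries held 7.08, 6.31 and 4.60 and the VC libraries 0.236, 0.0583 and 0. A count of 3, the upper limit that a count of 0 allows, corresponds to 0.175 to 0.178 CPM in the VC libraries. The 278 WT counts against 5 VC counts, scaled for library size, gave a ratio of 60.7 with a 95% counting interval of 25.7 to 188, which covers counting error only. The fitted log2 fold change was -5.82 (SE 0.63, edgeR adjusted p = 0.000341) but depended on the few VC counts, since it was -7.33 without VC replicate 11, -5.28 without VC replicate 13, and -1.61 when limma was run on log2(FPKM + 1).

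*Dusp2* (ENSMUSG00000027368, chromosome 2, 127336159 to 127338376, plus strand) encodes another inducible nuclear phosphatase, found mainly in blood cells. Unlike *Dusp1*, *Dusp4* and *Dusp5* it was higher in VC libraries, at 74.0, 65.7 and 85.3 CPM, than in WT libraries, at 27.2, 51.4 and 56.2 CPM. The groups did not overlap, but WT replicate 1 lay well below the other WT libraries. The means were 45.0 ± 15.6 and 75.0 ± 9.83 CPM (SD, n = 3), and the rise was just past the threshold (log2 fold change 0.74, SE 0.25, edgeR adjusted p = 0.0448). It was lost on leaving out WT replicate 2 (adjusted p = 0.0539), VC replicate 11 (0.0954), VC replicate 12 (0.0676) or VC replicate 13 (0.125), with log2 fold changes of 0.47 to 0.92 over the 6 omissions.

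*Dusp6* (ENSMUSG00000019960, chromosome 10, 99263231 to 99267489, plus strand) encodes the cytoplasmic phosphatase selective for ERK, and its mRNA is among the most used readouts of ERK activity. It was 62.5, 54.9 and 53.0 CPM in the WT libraries and 8.32, 5.01 and 2.61 CPM in the VC libraries. The WT libraries lay close together and the VC libraries ranged 3.18-fold, in the same order as for *Dusp5*. The mean fell from 56.8 ± 5.06 to 5.32 ± 2.87 CPM (SD, n = 3), a fitted fall of 10.7-fold (log2 fold change -3.41, SE 0.35, edgeR adjusted p = 0.000264). The neutrophil maturation markers had the same order in VC replicates 11, 12 and 13, summing to 3476, 2242 and 916 CPM. This order was not particular to them. The leukocyte and myeloid markers (493, 379 and 261 CPM) and the immediate-early genes described below (18740, 12108 and 11959 CPM) had it too. So did *Dusp1*, *Dusp4*, *Spry1* and *Spry2*, while *Dusp2*, *Dusp10*, *Spred1* and *Spred2* did not. *Spred1* had the order of the progenitor markers (496, 661 and 509 CPM). In WT replicates 1, 2 and 3 the neutrophil markers summed to 182, 145 and 448 CPM, not the order of *Dusp6*. Between the groups the neutrophil markers were higher in VC libraries, and their part in the levels of these genes was not tested.

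*Dusp10* (ENSMUSG00000039384, chromosome 1, 184013302 to 184075636, plus strand) encodes a phosphatase that prefers p38 and JNK over ERK. Its level was 11.7, 9.63 and 7.20 CPM in the WT libraries and 16.8, 16.8 and 11.3 CPM in the VC libraries. The lowest VC library was below the highest WT library, and the difference was not past the threshold (log2 fold change 0.66, 95% interval 0.09 to 1.22, edgeR adjusted p = 0.0595). It passed without WT replicate 1 (log2 fold change 0.83, adjusted p = 0.0446), without VC replicate 13 (0.82, 0.0358) and with DESeq2 (0.65, 0.0403). An antisense gene within it, *1700056E22Rik*, held 28 to 57 counts per library beside the 119 to 289 counts of *Dusp10*, and the reads of the 2 cannot be told apart without strand.

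The Sprouty genes encode membrane-associated proteins that bind GRB2 or CBL and so dampen receptor signals upstream of RAS. Both were scarce and they moved in opposite directions. *Spry1* (ENSMUSG00000037211, chromosome 3, 37639947 to 37644598, plus strand) gave 15, 18 and 23 counts in the WT libraries and 53, 47 and 43 in the VC libraries, or 0.974, 1.22 and 1.39 CPM against 3.13, 2.74 and 2.56 CPM. All VC libraries lay above all WT libraries, and the mean rose from 1.20 ± 0.210 to 2.81 ± 0.293 CPM (SD, n = 3, log2 fold change 1.22, SE 0.28, edgeR adjusted p = 0.00993). *Spry2* (ENSMUSG00000022114, chromosome 14, 105891947 to 105896819, minus strand) gave 21, 29 and 41 counts in the WT libraries and 12, 11 and 5 in the VC libraries, or 1.36, 1.97 and 2.48 CPM against 0.708, 0.641 and 0.297 CPM. Here all VC libraries lay below all WT libraries, and the mean fell from 1.94 ± 0.560 to 0.549 ± 0.221 CPM (SD, n = 3, log2 fold change -1.81, SE 0.42, edgeR adjusted p = 0.0107). At these low levels the FPKM scale with a pseudocount of 1 gave smaller log2 differences of 0.47 for *Spry1* and -0.60 for *Spry2*, both still past the threshold in limma.

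The SPRED genes fell steeply, and among the 10 genes they had the lowest adjusted p-values. *Spred1* (ENSMUSG00000027351, chromosome 2, 117121374 to 117182279, plus strand) encodes the SPRED protein whose loss in people causes a syndrome resembling neurofibromatosis. Its level was 306, 297 and 238 CPM in the WT libraries and 11.6, 18.4 and 13.1 CPM in the VC libraries. The mean fell from 280 ± 37.1 to 14.4 ± 3.54 CPM (SD, n = 3), a fitted fall of 19.5-fold (log2 fold change -4.29, SE 0.20, edgeR adjusted p = 1.95e-05). *Spred2* (ENSMUSG00000045671, chromosome 11, 19924375 to 20024026, plus strand), which encodes a related inhibitor of RAS signaling, was less abundant and fell similarly. It was 79.6, 65.5 and 77.5 CPM in the WT libraries and 3.96, 6.12 and 8.14 CPM in the VC libraries, and its mean fell from 74.2 ± 7.61 to 6.07 ± 2.09 CPM (SD, n = 3), a fitted fall of 12.2-fold (log2 fold change -3.61, SE 0.24, edgeR adjusted p = 5.38e-05). For both genes the highest VC library was far below the lowest WT library. On the log2(FPKM + 1) scale the change of *Spred2* was -2.90.

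**Figure D2:**
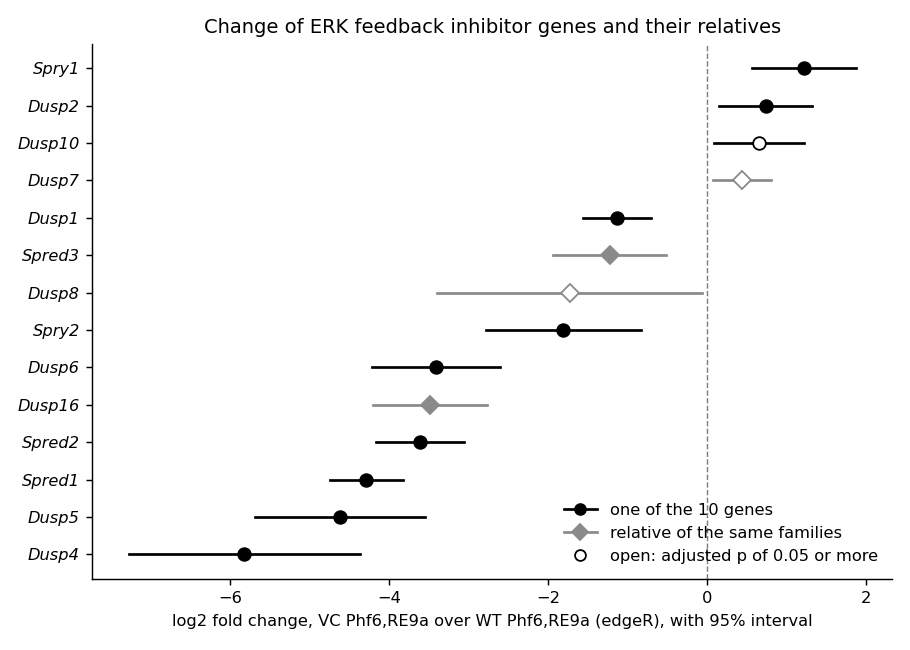
Points give the edgeR log2 fold change (VC over WT) with its 95% interval for the 10 genes (circles) and 4 relatives of the same families (diamonds), and open symbols mark an adjusted p of 0.05 or more. *Dusp4*, *Dusp5*, *Spred1*, *Spred2*, *Dusp16* and *Dusp6* lie furthest to the left, and *Spry1* furthest to the right.

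Levels were compared between genes on the FPKM scale, in which a count is divided by the length of the gene and the size of the library. In *WT Phf6,RE9a* cells the order of mean FPKM was *Dusp1* (1217), *Dusp5* (215), *Spred1* (41.1), *Dusp2* (22.3), *Dusp6* (18.0), *Spred2* (16.0), *Dusp10* (3.11), *Dusp4* (2.18), *Spry2* (0.921) and *Spry1* (0.409). Neighbours whose WT libraries overlapped, and whose order is therefore not resolved, were *Dusp2* and *Dusp6*, *Dusp6* and *Spred2*, and *Dusp10* and *Dusp4*. In *VC Phf6,RE9a* cells the order was *Dusp1* (551), *Dusp2* (36.9), *Dusp5* (8.71), *Dusp10* (4.87), *Spred1* (2.09), *Dusp6* (1.68), *Spred2* (1.30), *Spry1* (0.954), *Spry2* (0.260) and *Dusp4* (0.0354), with overlap between *Dusp5* and *Dusp10*, *Spred1* and *Dusp6*, *Dusp6* and *Spred2*, and *Spred2* and *Spry1*.

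The 10 mRNAs together summed to 1610, 1670 and 1328 FPKM in the WT libraries and 761, 566 and 498 FPKM in the VC libraries. Most of each sum was *Dusp1*, which made up 76.6% to 81.5% of it in WT and 89.1% to 91.9% in VC libraries. Without *Dusp1* the other 9 genes summed to 299, 390 and 268 FPKM in WT and 62.0, 54.0 and 54.5 FPKM in VC libraries. The sums are descriptions, since the genes were chosen with results of these data known.

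**Figure D3:**
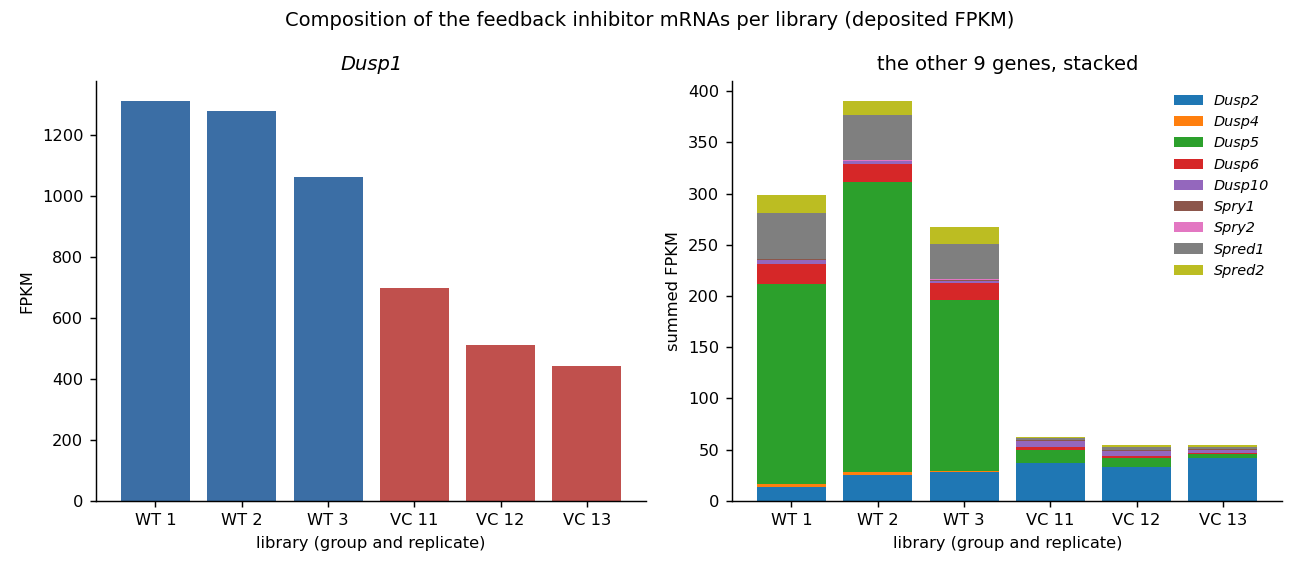
The left panel gives *Dusp1* and the right panel the other 9 genes stacked, both in deposited FPKM for each of the 6 libraries (linear axes from 0). In the WT libraries the right-hand bars reach 268 to 390 FPKM and consist mainly of *Dusp5*, and in the VC libraries they reach 54.0 to 62.0 FPKM and consist mainly of *Dusp2*.

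Ratios within a library do not depend on the scaling between libraries, and they show how unequally the members of a family changed. The ratio of *Dusp5* to *Dusp1* in FPKM was 0.176 ± 0.0398 in WT and 0.0151 ± 0.00602 in VC libraries (SD, n = 3), and that of *Dusp2* to *Dusp1* was 0.0188 ± 0.00797 and 0.0700 ± 0.0217. The ERK-selective *Dusp6* was 5.96 ± 1.04 times the p38- and JNK-selective *Dusp10* in WT libraries and 0.331 ± 0.133 times it in VC libraries. *Spry1* was 0.454 ± 0.0555 of *Spry2* in WT and 4.14 ± 1.77 in VC libraries, so which of the 2 Sprouty mRNAs was more abundant changed. The SPRED genes and the ERK-selective phosphatases changed less in ratio, by 1.52- and 2.36-fold. *Spred1* over *Spred2* was 2.60 ± 0.500 in WT and 1.71 ± 0.537 in VC libraries, and *Dusp5* over *Dusp6*, of nucleus and cytoplasm, was 9.79, 16.3 and 9.94 in the WT libraries and 5.09 ± 0.677 in the VC libraries. For each of these ratios the WT and VC libraries did not overlap, and a two-sided exact permutation test gave 0.1, the smallest p that 3 libraries against 3 allow. For *Dusp2* over *Dusp1* and *Spry1* over *Spry2* the separation follows from the opposite changes given above and is no further result.

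Of the 7 other MAP kinase phosphatase, Sprouty and SPRED genes looked up beside the 10, 4 were abundant enough to test, 2 fell and 2 did not pass, counts too small to set against the 44.2% called of all genes tested. *Dusp16*, a JNK- and p38-directed phosphatase, gave 295, 376 and 259 counts in WT and 40, 20 and 31 counts in VC libraries, a fall of a size like that of *Dusp6* (log2 fold change -3.48, SE 0.31, edgeR adjusted p = 0.000159). *Spred3* fell less (log2 fold change -1.22, SE 0.31, edgeR adjusted p = 0.0142). *Dusp7*, which encodes a cytoplasmic ERK phosphatase like DUSP6, did not pass (0.44, edgeR adjusted p = 0.0539) but did with DESeq2, with at least 10 counts in every library, and without WT replicate 3 (adjusted p = 0.0319). *Dusp8* was spread within the WT group, at 177, 41 and 27 counts against 38, 19 and 24, and did not pass (-1.73, edgeR adjusted p = 0.0854) but did with DESeq2, with no filter on low counts, and without WT replicate 3 (adjusted p = 0.0292). *Dusp9*, *Spry3* and *Spry4* had at most 4 counts in any library and were not tested, so a change of these genes was not detectable at this depth.

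The kinases on which the inhibitors act had a median change nearer to 0 than that of the inhibitors. Of 9 genes for ERK cascade kinases and scaffolds 8 were tested, with 4 lower, 1 higher and 3 not past the threshold, and a median log2 fold change of -0.24, beside 44.2% called of all genes tested. The RAF kinase *Braf* (log2 fold change -1.16, SE 0.19, edgeR adjusted p = 0.00230), the scaffold *Ksr1* (-0.97, SE 0.17, 0.00292) and the MEK gene *Map2k1* (from 84.2 ± 10.7 to 42.1 ± 2.07 CPM, SD, n = 3, 0.000378) fell. The second MEK gene *Map2k2* rose slightly (0.32, edgeR adjusted p = 0.0201), a call that was lost without VC replicate 11, VC replicate 12 or VC replicate 13 (adjusted p up to 0.0733). *Araf* (-0.18) and *Mapk3*, the ERK1 gene (-0.08), did not pass, and *Ksr2* was too scarce to test.

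Among the JNK and p38 kinases, the targets of *Dusp1*, *Dusp10* and *Dusp16*, 6 of 7 genes were tested, with 2 lower, 1 higher and 3 not past the threshold (median log2 fold change -0.46), a share of calls near the 44.2% of all genes tested. *Mapk8*, the JNK1 gene, fell (log2 fold change -1.37, SE 0.13, edgeR adjusted p = 0.000194), as did the scarce p38β gene *Mapk11* (-1.99, SE 0.53, 0.0182), the latter not without WT replicate 1, WT replicate 3, VC replicate 11 or VC replicate 13 (adjusted p up to 0.0663). *Mapk13*, the p38δ gene, rose (2.61, SE 0.60, 0.00963) from 0.612 ± 0.256 to 3.80 ± 2.45 CPM (SD, n = 3). Its level was 6.32, 3.67 and 1.43 CPM in VC replicates 11, 12 and 13, where the neutrophil maturation markers summed to 3476, 2242 and 916 CPM. That order was not particular to these markers, and the part of neutrophils in the rise of *Mapk13* was not tested. *Mapk9* (-0.06), *Mapk12* (-0.70, passing without VC replicate 13 with adjusted p = 0.0415) and *Mapk14*, the main p38 gene (-0.22, adjusted p = 0.0674, or 0.0382 without WT replicate 3, and past the threshold with DESeq2), did not pass, and *Mapk10* was not tested.

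The proteins with which Sprouty and SPRED work were tested as 6 genes, of which 3 fell and 3 did not pass (median log2 fold change -0.31), where 44.2% of all genes tested were called and 22.7% were lower. *Nf1*, which encodes the neurofibromin that SPRED proteins recruit, was 37.7, 70.8 and 35.2 CPM in WT and 26.4, 31.2 and 26.5 CPM in VC libraries. Its fall (log2 fold change -0.77, SE 0.26, edgeR adjusted p = 0.0446) was small beside those of *Spred1* and *Spred2*, was lost without VC replicate 11, VC replicate 12 or VC replicate 13 (adjusted p up to 0.124) and with limma on either FPKM scale, and shrank to -0.39 without WT replicate 2, which held the highest level. *Tesk1*, a kinase bound by Sprouty and SPRED proteins, fell (-1.11, SE 0.24, adjusted p = 0.00719), and the RAS activator *Sos1* fell slightly (-0.40, SE 0.10, 0.0143), the latter not without VC replicate 11 or VC replicate 13 (adjusted p up to 0.0590). The adaptor *Grb2* (-0.22, past the threshold with DESeq2), the ubiquitin ligase *Cbl* (0.19) and the phosphatase *Ptpn11* (-0.02) did not pass.

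Other genes that respond to ERK gave a mixed picture. Of 11 such genes 8 were tested, with 5 lower, 2 higher and 1 not past the threshold (median log2 fold change -0.81), beside 22.7% lower and 21.5% higher of all genes tested. *Etv5*, an ETS transcription factor induced by ERK, fell most, from 285, 174 and 190 counts in WT to 3, 7 and 3 counts in VC libraries (log2 fold change -5.73, SE 0.40, edgeR adjusted p = 6.24e-05). *Phlda1* (-2.06, SE 0.26, 0.000749), *Ier3* (-1.38, SE 0.15, 0.000341) and *Egr1* (-0.84, SE 0.18, 0.00731) fell too. *Myc* rose from 65.7, 74.2 and 137 CPM to 258, 255 and 285 CPM (1.53, SE 0.26, 0.00265). The receptor gene *Epha2* fell (-0.79, adjusted p = 0.0347) and the cyclin gene *Ccnd1* rose from a low level (1.48, adjusted p = 0.0296), but *Epha2* was lost without WT replicate 1, WT replicate 3, VC replicate 11 or VC replicate 13 (up to 0.116) and *Ccnd1* without WT replicate 1, WT replicate 2, VC replicate 11 or VC replicate 13 (up to 0.111). *Fosl1* did not pass (-0.37), and *Epha4*, *Etv1* and *Etv4* were not tested.

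*Dusp1*, *Dusp2* and *Dusp5* belong to the broader class of immediate-early genes, which respond within minutes to many stimuli, including the handling of cells. Values of this class are given beside them. The 10 immediate-early genes looked up made up 25797 to 40375 CPM of the WT and 11959 to 18740 CPM of the VC libraries, and 7 of them fell, 0 rose and 3 did not pass (median log2 fold change -1.08), beside 22.7% lower of all genes tested. *Nr4a1* (log2 fold change -2.35, SE 0.45, edgeR adjusted p = 0.00445), *Fos* (-1.87, SE 0.23, 0.000614), *Zfp36* (-1.84, SE 0.25, 0.000944), *Fosb* (-1.53, SE 0.29, 0.00447), *Junb* (-1.33, SE 0.27, 0.00624) and *Egr1*, given above, fell. *Btg2* also fell (-0.74, SE 0.26, 0.0480), but not without WT replicate 1, WT replicate 2, VC replicate 12 or VC replicate 13 (adjusted p up to 0.144), nor with at least 10 counts in every library. *Jun* (-0.67), *Ier2* (-0.58) and *Atf3* (0.91) did not pass, although *Ier2* did with DESeq2, with no filter on low counts and without WT replicate 3 or VC replicate 11 (adjusted p down to 0.0194) and *Atf3* without VC replicate 13 (0.0432). The log2 fold change of *Dusp1* (-1.13) was near the median of these genes, while those of *Dusp5*, *Dusp6*, *Spred1* and *Spred2* were larger in size than any of the 10. Sort and handling times of the libraries are not given in the sources used here, and their part in these levels was not tested.

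**Figure D4:**
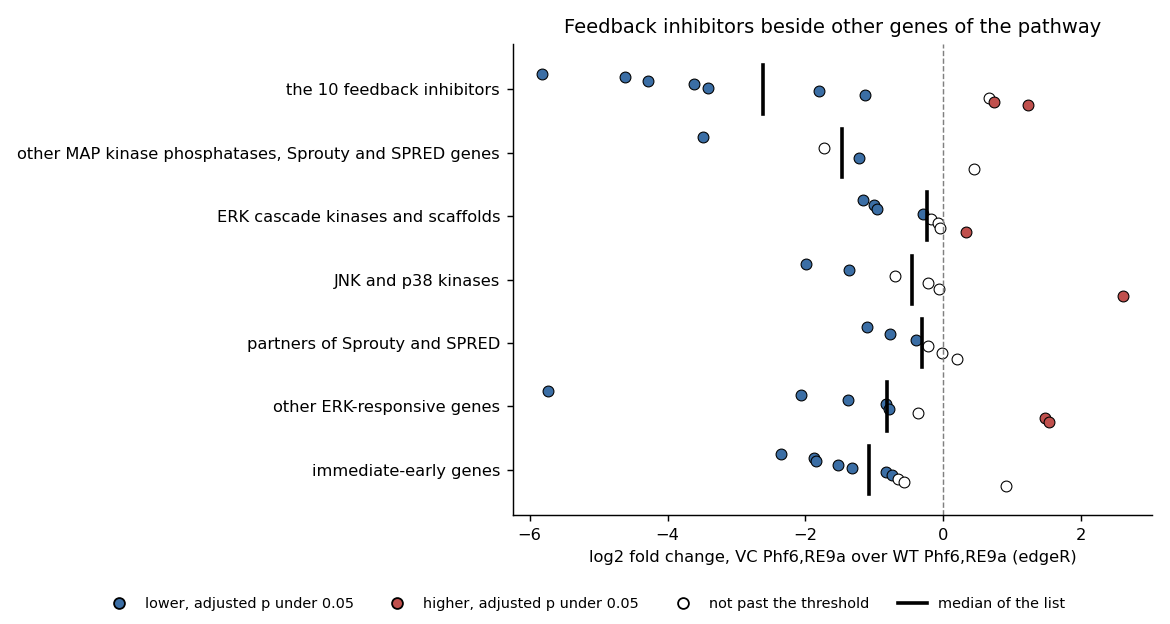
Each point is the edgeR log2 fold change (VC over WT) of 1 tested gene, filled blue if lower and red if higher at an adjusted p under 0.05, with the median of each list as a black bar. The median of the 10 feedback inhibitors is -2.61, against -0.24 for the ERK cascade genes and -1.08 for the immediate-early genes.

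For the gene of each family with the highest mean FPKM over the 6 libraries (for Sprouty this was *Spry1*, although *Spry2* was the higher in WT), the genes with the most similar profile over the 6 libraries were looked up in a search over 9197 genes whose log2 CPM averaged 3 or more. Likeness was the root mean square difference of log2 CPM, each gene centred on its own mean. *Dusp1* was nearest to *Shpk* (difference 0.06), *Pip4p1* (0.09) and *Rasgrp4* (0.10), a RAS activator of mast cells. *Spry1* was nearest to *Ethe1* (0.09), *Apobec1* (0.10) and *Polg2* (0.10), and *Spred1* to *Mllt6* (0.15), with *Gm33280* (0.16) also among its nearest. The profile of such a gene is set mainly by its difference between the groups, so a small distance describes a change of like size: the log2 fold changes of *Mllt6* and *Gm33280* were -4.42 and -4.47, beside -4.29 for *Spred1*.

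**Figure D5:**
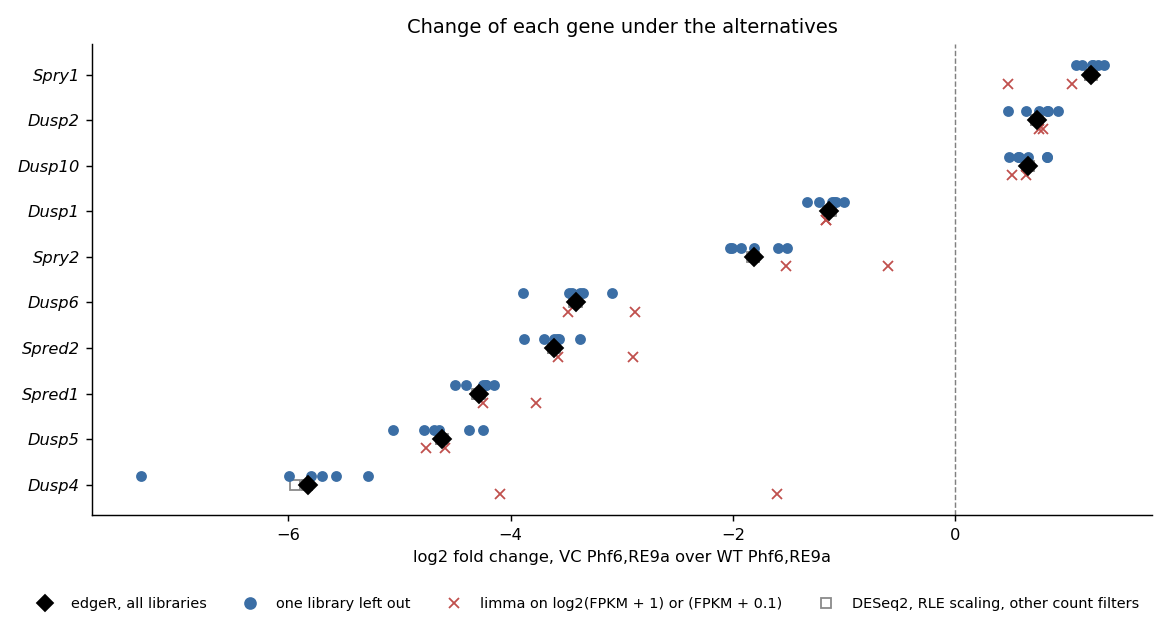
For each gene, symbols give the log2 fold change (VC over WT) from edgeR with all 6 libraries (diamond), with 1 library left out (blue circles), from limma on log2 FPKM with either pseudocount (red crosses) and under the other settings (grey squares). All symbols of a gene lie on the same side of 0, with the widest spread for *Dusp4* (-7.33 to -1.61).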

How the data were processed

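RNA of GFP+ bone marrow cells was sequenced by the study in 3 *WT Phf6,RE9a* and 3 *VC Phf6,RE9a* libraries, grouped by their labelled titles and genotype. The authors deposited 1 table with read counts per gene and FPKM values for each library, and with columns of their own comparison (fold changes and p-values), which were not used. The deposited FPKM equalled the count divided by the listed gene length and by a library size that was 0.916 to 1.074 times the summed counts. The submitters' processing notes name Bowtie 0.12.0 and mm8, yet of the 54409 identifiers found in GENCODE M21 (GRCm38) 98.33% had the same start and end, so coordinates are given as deposited and read as GRCm38; GENCODE M21 extends *Dusp1* to 26562128. Strandedness is not given in the sources used here.

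Counts of the 14169 genes kept by filterByExpr were tested with edgeR 4.0.16 (R 4.3.3; TMM, quasi-likelihood test, Benjamini-Hochberg adjustment over all genes tested, threshold 0.05). SE is the absolute log2 fold change over the square root of F. CPM used TMM-scaled library sizes. The script was tested on simulated data, in which far fewer genes changed than were called here, and by at most 4-fold. Alternatives were DESeq2 1.42.0 (the tool named by the study's methods), RLE scaling, no filter, a minimum of 10 counts in each library, limma 3.58.1 on log2(FPKM + 1) and log2(FPKM + 0.1), an adjusted p of 0.01, a 2-fold minimum and each library left out. With 15675358 to 16817994 counts per library, 3 counts correspond to 0.175 to 0.204 CPM, the upper limit that a count of 0 allows. Libraries of a group were compared by chi-square over genes, which gave 11.8 to 46.4 per gene, so none was a copy of another. The members and the gene lists were chosen with earlier results of these data known. Every member is named, every tested gene of each list, and the 3 genes nearest in profile to the member of each family with the highest mean FPKM over the 6 libraries, except for a few genes that are counted but not reported here by name. RefSeq promoter windows (GRCm38.p6) were searched on both strands in Python 3.11.15; permutation tests used scipy 1.17.1 and figures matplotlib 3.10.9.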

Additional observations from a re-analysis of the deposited data

How the results depend on the processing

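No paired analysis was possible because the groups share no replicate number. Of 118 alternative values of the 10 genes' log2 fold changes, 111 kept direction and side of the threshold, 4 lost the threshold (*Dusp2*, over omissions 0.47 to 0.92), 3 gained it (*Dusp10*, 0.65 with DESeq2 and 0.48 to 0.83 over omissions) and 0 reversed. *Dusp4* and *Spry2* were not tested with at least 10 counts in every library. The count of members higher in VC was 1 to 3 over omissions, and 1 at an adjusted p under 0.01 or with a 2-fold minimum. Of the list counts, 164 of 196 stayed within 1.5 times and 32 did not. Over omissions the counts were, higher in VC, 0 to 1 for relatives, 0 to 1 for the ERK cascade, 1 to 2 for ERK-responsive and 0 to 1 for immediate-early genes, and, lower in VC, 1 to 2 for JNK and p38 kinases and 1 to 3 for partners. At 0.01 they were 1 (relatives lower), 0 (ERK cascade higher), 1 (JNK and p38 lower), 1 (partners lower) and 1 (ERK-responsive higher). With a 2-fold minimum they were 1 (ERK cascade lower), 0 (ERK cascade higher), 1 (partners lower) and 3 (ERK-responsive lower). With at least 10 counts they were 1 (relatives higher), 1 and 0 (JNK and p38 lower and higher) and 1 (ERK-responsive higher), and with DESeq2 1 relative was higher. A stricter threshold or a fold minimum can only lower a count, by construction. For the other settings, some of which raised a count, the cause was not tested. Ordered by CPM in place of FPKM, 8 of the 10 genes kept their rank in each group. Scaling moved the median of all genes by under 0.1 on the log2 scale. The low counts of *Dusp4*, *Spry1* and *Spry2* limit their precision.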

Other observations

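The table also held 8 tested genes of other dual-specificity phosphatases, which mostly lack MAP kinases as their chief substrates. They were looked up after the values above had been seen. *Dusp18* was 14.7 ± 8.77 CPM in WT and 0.373 ± 0.121 CPM in VC libraries (SD, n = 3, log2 fold change -5.27, SE 0.66, edgeR adjusted p = 0.000673), with 290, 305 and 77 counts against 8, 7 and 4, so WT replicate 3 was well below the other WT libraries. *Dusp23* fell from 7.56 ± 2.01 to 1.69 ± 0.506 CPM (-2.16, SE 0.33, edgeR adjusted p = 0.00165), and *Dusp3*, which can act on ERK and JNK, fell from 84.7 ± 8.63 to 54.4 ± 7.20 CPM (-0.64, SE 0.12, edgeR adjusted p = 0.00477). The other 5, *Dusp11* (0.13), *Dusp12* (-0.36), *Dusp19* (-0.14), *Dusp21* (-0.67) and *Dusp28* (-0.21), did not pass, and none of the 8 rose. These counts are too small to set against the 22.7% lower and 21.5% higher of all genes tested.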
